A study of Mus musculus with 12 samples.

Results

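The mitochondrial ribosome is built from ribosomal RNA that the mitochondrial genome encodes and from proteins that are all encoded in the nucleus. The genes of those proteins were taken by name from the deposited tables: every symbol that reads Mrpl or Mrps, a number and at most one letter from a to c, plus Chchd1, whose name does not show that its product belongs to the small subunit. The rule found 78 genes among the 23183 symbols of each table. By symbol, 48 belong to the large subunit (Mrpl) and 30 to the small subunit (Mrps and Chchd1). All 78 reached a mean of at least 1 FPKM in every comparison, so none was lost to the filter on low values, and the rule used no measured value.

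Hippocampal and prefrontal RNA came from 6 male mice of the inbred strain C57BL/6. The irradiated group consisted of 3 mice whose abdomen, and not the head, was the target of X-rays (13 Gy in the library names), and the control group of 3 mice that were not irradiated. The treatment models chronic damage to the gut, and brains were taken in the chronic phase, at a time and an age not given in the sources used here. All mice share the strain, sex and housing, and no transgene or deletion is named. Each of the 4 groups holds 3 libraries, 1 per mouse, and the titles give the same mouse number to both regions of a mouse, written below as hippocampus irradiated 2 and the like.

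Mitochondrial ribosomes translate only the few mRNAs of the mitochondrial genome, and every one of the resulting proteins is a core subunit of the respiratory chain or of the ATP synthase. The small subunit binds the mRNA and decodes it, and the large subunit forms the peptide bonds and releases the chain through a tunnel that faces the inner membrane. Compared with its bacterial ancestor, the mammalian particle has lost ribosomal RNA and gained proteins, so that members fall into a bacterial type and a mitochondria-specific type. In brain, where synapses draw heavily on oxidative phosphorylation, inherited defects of several members cause encephalopathy. The 13 mitochondrially encoded mRNAs and 2 ribosomal RNAs were not found in the deposited values under the symbols searched, so they were not analysed here.

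The values are read as FPKM, that is fragments divided by transcript length in kilobases and by the library's mapped fragments, and differences are given on the scale log2(FPKM + 1). Between 12640 and 12967 genes reached 1 FPKM in a library. The estimated depth was 15.68 to 18.98 M (mega) fragments per library, read from steps between low values of which 53.6% to 63% came within 0.1 of a whole number, so it is approximate and gives no counting error per gene. The labels fitted the tissue: summed hippocampal markers ran from 125 to 162 FPKM in hippocampus and from 10.5 to 13.2 FPKM in prefrontal cortex, and summed cortical markers from 67.7 to 88.5 FPKM and from 191 to 237 FPKM.

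Promoter windows were looked up because nuclear respiratory factor 1 (NRF1), GA-binding protein of the ETS family, YY1 and SP1 are known regulators of nuclear genes for mitochondrial proteins. A RefSeq window of 300 bases on GRCm38.p6, from 250 bases before to 50 bases after the RefSeq start of the gene, was found for 69 of the 78 members. The windows of 4 members are shown because these genes return below: Chchd1 and Mrpl34 with the smallest p between irradiated and control hippocampus, Mrpl14 with the smallest in prefrontal cortex, and Mrps18b with the smallest for the difference between regions. They lie at chr14:20702777-20703076 on the plus strand (Chchd1), chr8:71464676-71464975 on the plus strand (Mrpl34), chr17:45686099-45686398 on the plus strand (Mrpl14) and chr17:35916391-35916690 on the minus strand (Mrps18b), each read 5′ to 3′ along its gene. Capitals mark the letters of an NRF1-type, ETS-type, YY1-type or SP1-type word on either strand.
Chchd1: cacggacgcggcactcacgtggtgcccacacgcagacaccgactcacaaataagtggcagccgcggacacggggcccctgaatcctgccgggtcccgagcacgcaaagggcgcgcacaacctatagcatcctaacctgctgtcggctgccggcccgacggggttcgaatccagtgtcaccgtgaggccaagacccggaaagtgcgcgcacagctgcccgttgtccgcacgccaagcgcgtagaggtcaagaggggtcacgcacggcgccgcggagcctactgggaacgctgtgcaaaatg
Mrpl34: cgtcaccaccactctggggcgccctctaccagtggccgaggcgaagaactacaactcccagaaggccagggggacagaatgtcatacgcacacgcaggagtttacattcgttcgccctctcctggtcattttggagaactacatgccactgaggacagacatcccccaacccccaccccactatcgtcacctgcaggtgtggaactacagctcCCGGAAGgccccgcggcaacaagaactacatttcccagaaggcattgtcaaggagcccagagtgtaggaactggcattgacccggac
Mrpl14: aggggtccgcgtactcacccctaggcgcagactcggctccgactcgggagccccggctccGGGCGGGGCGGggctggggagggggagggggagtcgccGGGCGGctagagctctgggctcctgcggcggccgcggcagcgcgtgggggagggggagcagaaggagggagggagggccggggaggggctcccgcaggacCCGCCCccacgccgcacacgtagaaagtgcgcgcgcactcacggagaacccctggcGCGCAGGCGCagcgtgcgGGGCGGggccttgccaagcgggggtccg
Mrps18b: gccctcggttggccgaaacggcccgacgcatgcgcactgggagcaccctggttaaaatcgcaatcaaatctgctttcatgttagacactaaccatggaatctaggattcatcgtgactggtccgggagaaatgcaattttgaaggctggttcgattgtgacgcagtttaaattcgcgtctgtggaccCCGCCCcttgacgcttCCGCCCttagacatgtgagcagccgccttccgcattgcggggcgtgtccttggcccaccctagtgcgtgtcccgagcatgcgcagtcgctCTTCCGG

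The words searched, on both strands, were GCGCA and GCGC with any single base between them (NRF1-type), CCGGAAG (ETS-type), AAGATGG (YY1-type), GGGCGG (SP1-type), CCAAT and TATAAA, none of which contains another. The Mrpl14 window holds an NRF1-type word whose first base is 5 bases after the start, and 5 SP1-type words, of which the first pair overlap by 1 base. The Mrpl34 window holds a single ETS-type word, 37 bases before the start. The Mrps18b window holds an ETS-type word at its end, 44 bases after the start, and SP1-type words 63 and 47 bases before that start. These positions count from the RefSeq start, which can differ from the GENCODE M21 start. By GENCODE M21 Mrpl34 starts further downstream, at 71464959. Mrps18b starts there at 35916389 on the minus strand, so its whole window lies before the gene. None of the 4 marked words occurs in the Chchd1 window, which says only that these letters are not in these bases.

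ETS-type words stood in 34.8% of the 69 member windows, against 17.5% of the 9860 windows of genes tested in hippocampus and 9.12% of all 27025 windows. YY1-type words stood in 18.8%, 7.24% and 6.48% of the same sets, and NRF1-type words in 18.8%, 10.3% and 4.78%. SP1-type words went the other way among the genes tested, with 49.3% of the member windows and 65.6% of those of tested genes. CCAAT stood in 39.1% and 38.4%, and TATAAA in 5.8% and 6.76%. The windows of cytosolic ribosomal protein genes held the ETS-type word in 38.1% and the NRF1-type word in 7.94% of 63, and those of nuclear respiratory chain genes in 22.7% and 24.2% of 66. Within the members, the NRF1-type word stood in 10 of 42 large-subunit and 3 of 27 small-subunit windows. These shares are descriptions without a test, and windows of members had a median GC content of 58.3% against 61.3% for the genes tested.

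Members differed widely in level. Over the 12 libraries the means spanned 30.9-fold, with 15 members at 50 FPKM or more and 6 below 10 FPKM. Mrps21, a bacterial-type protein of the small subunit, was the highest at 134 FPKM, followed by Mrpl52 at 85.6 FPKM and Mrpl30 at 75.1 FPKM. The lowest were Mrpl17 at 4.34 FPKM, which sits at the rim of the tunnel exit, Mrpl1 at 5.11 FPKM, the protein of the L1 stalk, and Mrpl15 at 5.63 FPKM. Most members contribute a single copy to the particle, as background to these unequal mRNA levels per length. Members with short transcripts tended to be high (Spearman rho −0.399 between level and the longest annotated transcript over 78 members, which share the libraries and the length that FPKM divides by). Single values ran from 3.73 FPKM for Mrpl17 in prefrontal cortex irradiated 2 to 152 FPKM for Mrps21 in hippocampus control 1.

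**Figure D1:**
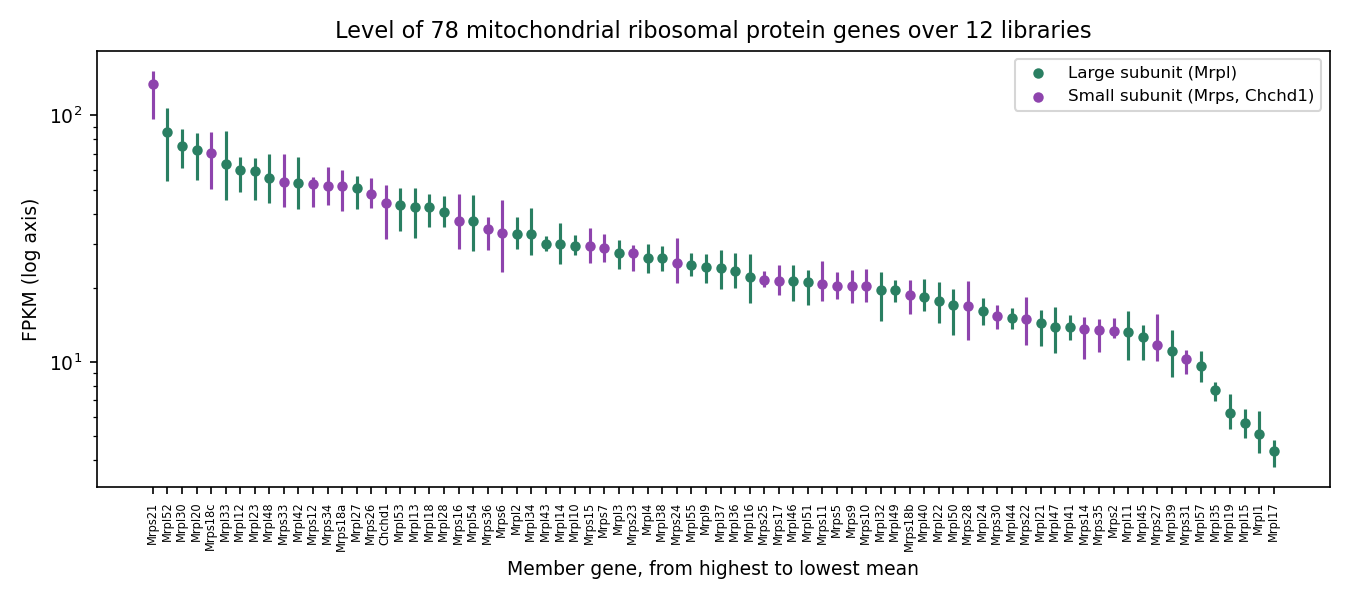
FPKM (log axis) of each of the 78 member genes, ordered by mean. Points are means over 12 libraries, bars run from the lowest to the highest library, green is the large and purple the small subunit by symbol. Mrps21 stands highest at 134 FPKM and Mrpl17 lowest at 4.34 FPKM.

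In each group the median member lay close to the same level: 23.5 FPKM in irradiated and 25.3 FPKM in control hippocampus, 24.4 FPKM in irradiated and 24.3 FPKM in control prefrontal cortex. The median coefficient of variation between the mice of a group was 7.69%, 6.38%, 10% and 7.93% in that order. The median differences described below are of about this size.

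Summed over all members, irradiated hippocampus held 2286, 2200 and 2471 FPKM and control hippocampus 2718, 2502 and 2466 FPKM. Irradiated 3 thus reached into the controls, by a few FPKM above control 3. The sums of prefrontal cortex were 2322, 1999 and 2370 FPKM in irradiated mice and 2512, 2370.2 and 2537 FPKM in control mice. Here irradiated 3 and control 2 were nearly equal, the irradiated libraries were otherwise lower, and irradiated 2 stood lowest of all 12 libraries. The group means were 2319 ± 139 and 2562 ± 136 FPKM in hippocampus, and 2231 ± 202 and 2473 ± 89.8 FPKM in prefrontal cortex (SD, n = 3).

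Large and small subunit kept nearly the same proportion. The large-subunit sum divided by the small-subunit sum was 1.44 ± 0.0219 in irradiated and 1.43 ± 0.0282 in control hippocampus, and 1.46 ± 0.0176 in irradiated and 1.48 ± 0.0088 in control prefrontal cortex (SD, n = 3). In both regions the ranges of irradiated and control ratios overlapped. Assigning Mrps18a and Mrps30 to the large subunit, where their proteins sit in the mammalian structure, and leaving out Mrps36, now placed in the oxoglutarate dehydrogenase complex, gave ratios of 1.69 and 1.67 in hippocampus and 1.71 and 1.73 in prefrontal cortex in the same order.

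**Figure D2:**
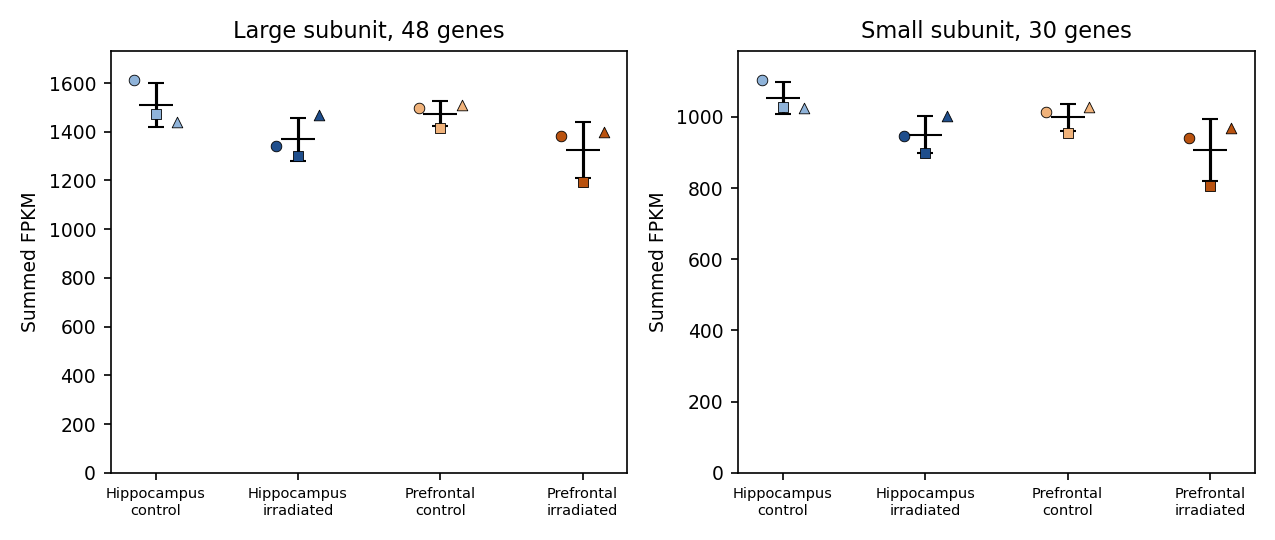
Summed FPKM of the 48 large-subunit genes (left) and of the 30 small-subunit genes (right) per library. Circles, squares and triangles are mice 1, 2 and 3, horizontal lines are means and bars are SD (n = 3). Prefrontal cortex irradiated 2 is the lowest library in both panels, at 1193 and 807 FPKM.

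Irradiated and control hippocampus were compared with limma over 12947 genes, to see which genes differ in a brain region that was not itself the target. The log2 difference (irradiated minus control) was below 0 for 68 of the 78 members and above 0 for 10, against 53% of all genes tested below 0. With the FPKM of each library rescaled to equal totals, 51 members were below 0 against 29% of all genes. The median difference of the members was −0.12, that of all genes −0.01. No member passed the adjusted threshold in either direction, and neither did any other gene (0% of genes higher and 0% lower at limma's adjusted p of 0.05). At an unadjusted p under 0.05, 16 members were lower and 0 higher, against 5.81% and 4.7% of all genes. All 3 irradiated libraries lay below all 3 controls for 22 members (8.16% of all genes), and above them for 1, Mrps5 (7.41%). Rescaled to equal totals, 4 members were lower by p (1.85% of all genes) and 1 was higher (11.1%). Without overlap 8 were then lower (2.77%) and 3 higher (14.9%). Leaving out 1 library gave 8 lower by p without irradiated 1 (3.15% of all genes), 8 without irradiated 2 (3.37%), 7 without control 1 (2.4%) and 27 without irradiated 3 (9.98%). Lower without overlap were 40 without irradiated 3 (19.9% of all genes) and 36 without control 3 (17.9%). In bulk tissue, fewer cells of a type and less RNA per cell cannot be told apart.

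The pattern was found in both subunits. Of the large subunit 43 of 48 members had a difference below 0 (median −0.12), and of the small subunit 25 of 30 (median −0.14). For the 2 types of protein the subunits were assigned by structure, with Mrps18a and Mrps30 in the large subunit and Mrps36 left out. The bacterial-type proteins of the small subunit had a median of −0.17 over 16 genes and its mitochondria-specific proteins −0.03 over 11. In the large subunit the corresponding medians were −0.12 over 30 and −0.10 over 20.

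Chchd1, a mitochondria-specific protein of the small subunit encoded at chr14:20703006-20704425 in 3 exons (mm10, GENCODE M21), had the smallest p of all members. It stood at 36.2, 37.8 and 40.5 FPKM in irradiated and at 50.2, 50.6 and 52.4 FPKM in control hippocampus. The groups were well apart, with a gap wider than the range within either. The log2 difference was −0.41 ± 0.06 (SE), with an adjusted p of 0.148 in limma. With the trend of each library along transcript length removed, it was −0.24.

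Mrpl34, a bacterial-type protein of the large subunit at chr8:71464959-71465747 in 2 exons, was the other member with clearly separated groups. Its values were 27.4, 27.1 and 28.3 FPKM in irradiated and 34.3, 33.5 and 35.2 FPKM in control hippocampus. Each group varied by little more than 1 FPKM around its mean, and the groups differed by several times that. The log2 difference was −0.31 ± 0.05 (SE) with a limma adjusted p of 0.269, and −0.13 with the length trend removed.

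In the stalk that recruits translation factors (Mrpl10, Mrpl11, Mrpl12, Mrpl53 and Mrpl54), all 5 members were below 0 with a median of −0.13. Mrpl53 had 39.9, 37.8 and 42.9 FPKM in irradiated and 50.9, 46.6 and 43.1 FPKM in control hippocampus. Its groups only just failed to touch, and its log2 difference was −0.22 ± 0.07 (limma adjusted p 0.475). Mrpl12, the stalk protein itself, differed by −0.11 ± 0.08 and its groups overlapped. Around the peptidyl transferase centre 4 of 5 members were below 0 with a median of −0.12. At the tunnel exit 7 of 8 were below 0 with a median of −0.07, among them Mrpl23 at −0.23 ± 0.08 with groups apart and Mrpl44, an RNase III-like protein, at −0.02 ± 0.08. In the central protuberance, the knob that faces the head of the small subunit, the median was −0.04 over 6 members.

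Mrpl14, a bacterial-type protein of the face towards the small subunit, had 25.7, 26.7 and 28.2 FPKM in irradiated and 34.4, 30.3 and 29.99 FPKM in control hippocampus. The highest irradiated value stayed below the lowest control value, and the log2 difference was −0.23 ± 0.07. Mrpl21, also of the bacterial type, had a log2 difference of −0.24 ± 0.08 with groups apart. Mrpl14 overlaps Tmem63b on the opposite strand, and it is not given whether counting used the strand. Such an overlap with a coding gene exists for 23 of the 78 members, none of them Chchd1, Mrpl34 or Mrps18b.

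In the small subunit, Mrps28 stood at 17.06, 12.3 and 14.1 FPKM in irradiated and at 19.7, 17.08 and 18.5 FPKM in control hippocampus. Irradiated 1 and control 2 nearly met, and the log2 difference was −0.34 ± 0.11 (limma adjusted p 0.475). Mrps33, a mitochondria-specific protein, differed by −0.25 ± 0.08 and Mrps18b by −0.22 ± 0.08, both with groups apart, while Mrps10 differed by −0.23 ± 0.09 with overlap. Mrps12, which helps to read the codon, differed by −0.04 ± 0.06, Mrps34 by −0.02 ± 0.11, and Mrps18a and Mrps30, which sit in the large subunit, by −0.10 ± 0.06 and −0.04 ± 0.07. The irradiated mean of Mrps36 was 32.6 ± 3.82 and the control mean 37.4 ± 1.43 FPKM (SD, n = 3), a log2 difference of −0.20 with a limma adjusted p of 0.475. The highest difference above 0 was 0.10, in Mrpl15.

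The same comparison in prefrontal cortex covered 12729 genes. The log2 difference was below 0 for 63 members and above 0 for 15, against 48.8% of all genes below 0. Rescaled to equal totals, 42 members were below 0 against 28.4% of all genes. The median of the members was −0.10 and that of all genes 0.0035. No member passed the adjusted threshold in limma, where 0.00786% of all genes (1 gene) passed as higher and 0% as lower. At an unadjusted p under 0.05, 17 members were lower and 1, Mrpl57, was higher, against 4.79% and 2.44% of all genes. The irradiated libraries lay below all controls for 18 members (7.44% of all genes) and above them for 2, Mrps18b and Mrpl57 (6.25%). Rescaled to equal totals, 8 members were lower by p (2.4% of all genes) and 2 higher (8.12%), and without overlap 11 were lower (3.19%) and 4 higher (15.8%). With a library left out, 9 were lower by p without irradiated 2 (4.02% of all genes) and 11 without control 3 (3.56%), and 29 without overlap where irradiated 3 was left out (12.2% of all genes).

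Differences below 0 were found for 36 of 48 large-subunit members (median −0.09) and 27 of 30 small-subunit members (median −0.10). Without prefrontal cortex irradiated 2 these medians were −0.03 and −0.05, and 47 members were below 0. With subunits assigned by structure, as for the types in hippocampus, the mitochondria-specific proteins of the large subunit had a median of −0.12 and its bacterial-type proteins −0.05. In the small subunit the bacterial type was at −0.13 and the mitochondria-specific type at −0.06.

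Mrpl14 had the smallest p in this region. Its values were 27.1, 25.03 and 28.5 FPKM in irradiated and 34.9, 32.4 and 36.5 FPKM in control prefrontal cortex. The groups did not overlap, as in hippocampus. The log2 difference was −0.35 ± 0.08 with a limma adjusted p of 0.369, and −0.16 with the length trend removed.

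Mrpl54, a stalk protein of the mitochondria-specific type at chr10:81264713-81266934 in 3 exons, had 30.6, 29.6 and 34.7 FPKM in irradiated and 45.9, 37.7 and 43.5 FPKM in control prefrontal cortex. Every irradiated value lay below every control value. Its log2 difference was −0.41 ± 0.09 with a limma adjusted p of 0.371, and −0.21 with the length trend removed. The 5 stalk members were again all below 0, with a median of −0.17, and Mrpl12 was at −0.17 ± 0.09 with overlapping groups.

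All 6 members of the central protuberance found in the tables were below 0, with a median of −0.16. Mrpl46 had 21.2, 17.6 and 19.8 FPKM in irradiated and 24.4, 22.6 and 24.8 FPKM in controls, groups apart and −0.28 ± 0.08 on the log2 scale. Mrpl40 had 16.4, 17.5 and 17.03 FPKM against 21.6, 18.6 and 21.7 FPKM, a log2 difference of −0.26 ± 0.08 with groups apart. Neither passed the test (limma adjusted p 0.495 and 0.521). The tunnel exit had a median of −0.07 with 7 of 8 below 0, and the surroundings of the peptidyl transferase centre −0.04 with 3 of 5 below 0. Mrpl30, a bacterial-type protein, differed by −0.28 ± 0.08 with groups apart.

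In the small subunit, Mrps18c stood at 50.3, 51.9 and 71.1 FPKM in irradiated and at 72.3, 72.9 and 84.97 FPKM in control prefrontal cortex. Irradiated 3 came close to the lower controls without reaching them, and the log2 difference was −0.42 ± 0.13 (limma adjusted p 0.521). Chchd1 had 39.9, 31.6 and 46.6 FPKM against 52.3, 44.4 and 48.3 FPKM. Here irradiated 3 lay above control 2, unlike in hippocampus, and the log2 difference was −0.30 ± 0.13 (limma adjusted p 0.649), or −0.16 without irradiated 2. Mrps15 and Mrps11, both of the bacterial type, differed by −0.22 ± 0.08 and −0.23 ± 0.09, and Mrps30 by −0.16 ± 0.07, each with groups apart. Mrps12 was at −0.18 ± 0.09 with groups apart, Mrps18a at −0.19 ± 0.10, Mrps34 at 0.03 ± 0.10, Mrps36 at −0.04 ± 0.10 and Mrpl44, in the large subunit, at −0.06 ± 0.08.

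**Figure D3:**
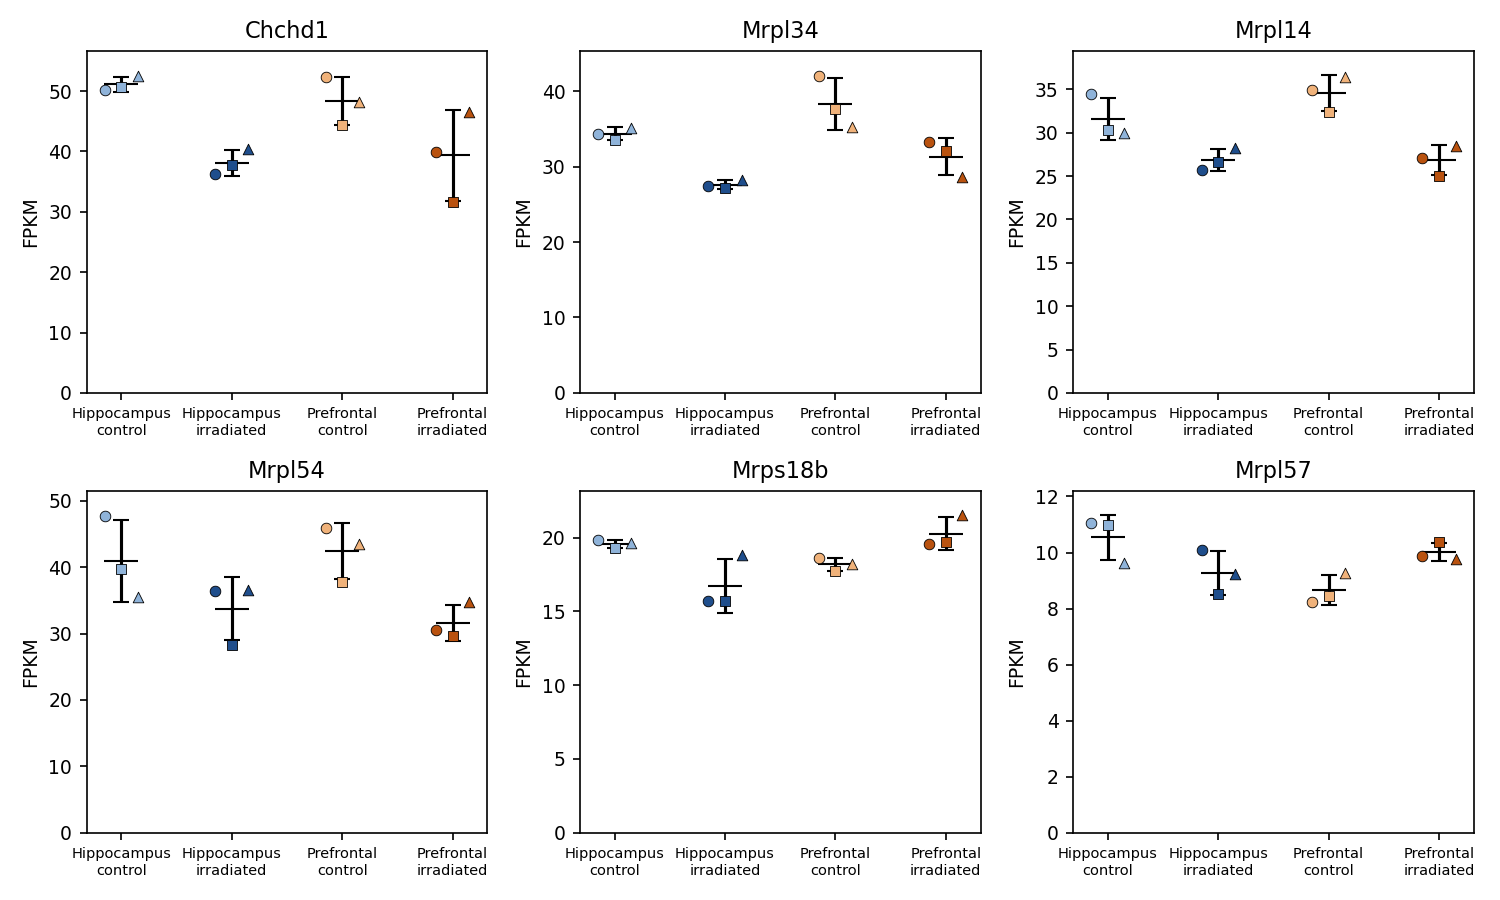
FPKM of 6 members per library, with mean and SD (n = 3). Circles, squares and triangles are mice 1, 2 and 3. Chchd1 separates by treatment in hippocampus, Mrpl34 and Mrpl14 in both regions, Mrpl54 in prefrontal cortex, and Mrps18b and Mrpl57 lie higher in irradiated than in control prefrontal cortex while their means are lower in irradiated hippocampus.

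Across the regions, 56 members had a difference below 0 in both, 12 in hippocampus alone and 7 in prefrontal cortex alone. Of all genes tested in both regions, 33.3% were below 0 in both. The difference was above 0 in both for 3, Mrpl15, Mrpl16 and Mrps2. Over the 78 members the differences in hippocampus and in prefrontal cortex correlated with Pearson's r of 0.419 and Spearman's rho of 0.398, a description over genes in regions that come from the same mice. Groups were apart and lower in both regions for 5 members, Mrpl13, Mrpl14, Mrpl34, Mrpl39 and Mrps15, which is 22.7% of the 22 in hippocampus and 27.8% of the 18 in prefrontal cortex. Of the 12456 genes tested in both regions, 1.07% met the same criterion. An unadjusted p under 0.05 was reached in both regions, as lower, by 6 (1% of genes): Chchd1, Mrpl14, Mrpl30, Mrpl34, Mrps15 and Mrps18c.

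**Figure D4:**
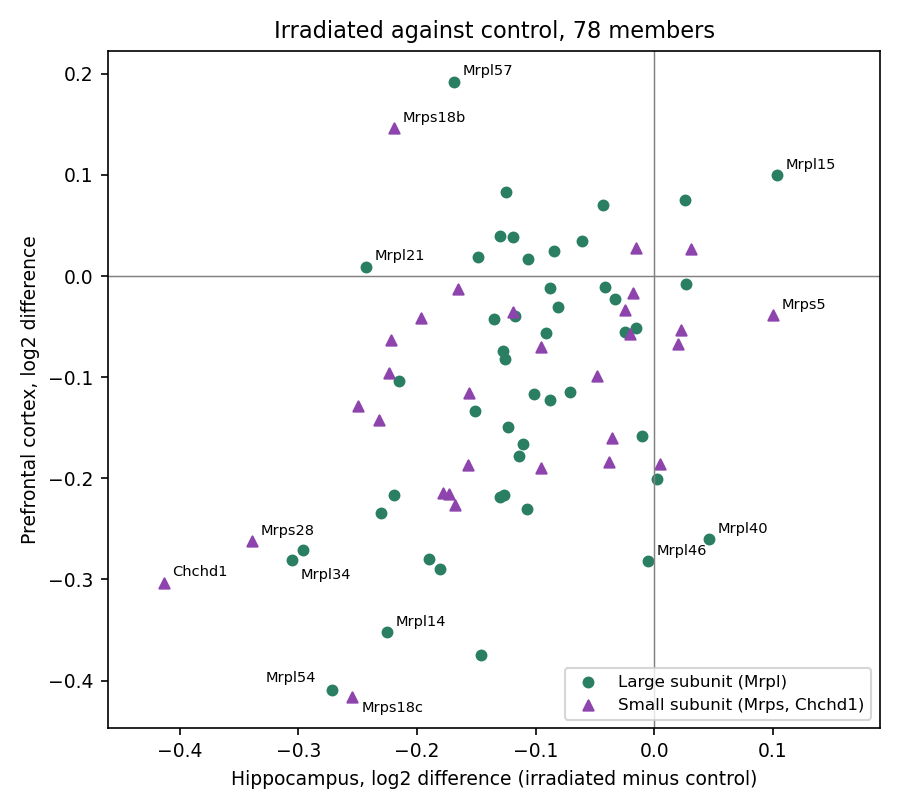
Log2 difference (irradiated minus control) in hippocampus (horizontal) and prefrontal cortex (vertical) for each of the 78 members. Circles are large-subunit and triangles small-subunit genes by symbol. Points in the lower left are the 56 members below 0 in both regions, and Mrps18b and Mrpl57 lie in the upper left.

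The difference of the effect (hippocampus minus prefrontal cortex, over all 12 libraries) was above 0 for 39 members and below 0 for 39, against 52% of all genes below 0. None passed the adjusted threshold in limma, nor did any of the 12894 genes tested (0% higher and 0% lower). At an unadjusted p under 0.05, 2 members were above and 2 below 0, against 1.92% and 1.35% of all genes. This fit did not pair the regions of a mouse. With the mouse as a block, 3 were above and 2 below 0 by p (2.92% and 2.36% of all genes), and none was called. In the fit without the block, Mrps18b had the smallest p. It is 1 of 3 paralogs of the bacterial S18 protein and one that sits in the small subunit. In hippocampus it stood at 15.67, 15.7 and 18.8 FPKM in irradiated and at 19.8, 19.3 and 19.6 FPKM in control mice, and in prefrontal cortex at 19.6, 19.7 and 21.5 FPKM in irradiated and 18.6, 17.7 and 18.2 FPKM in control mice. All irradiated values were thus below all controls in hippocampus (8.16% of all genes) and above them in prefrontal cortex (6.25%), each share taken for that region alone. The difference between the effects was −0.37 ± 0.10 on the log2 scale, with a limma adjusted p of 0.9998, so it is not shown to differ once all genes are counted.

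Mrpl57, a small mitochondria-specific protein of the large subunit, followed with −0.36 ± 0.11. Its levels in prefrontal cortex were 9.89, 10.4 and 9.78 FPKM in irradiated and 8.25, 8.44 and 9.27 FPKM in control mice, without overlap, while in hippocampus 10.1, 8.53 and 9.22 FPKM overlapped with 11.04, 10.99 and 9.62 FPKM. Mrpl40 and Mrpl46, both of the central protuberance, had differences of 0.31 ± 0.13 and 0.28 ± 0.12, being lower in irradiated prefrontal cortex than in its controls and near 0 in hippocampus (0.05 and −0.005). Mrpl21 was at −0.25 ± 0.14. None of these 4 passed either (limma adjusted p 0.9998 each).

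Other genes of mitochondrial translation were counted by list. The 12 translation factors had medians of 0.01 in hippocampus and 0.02 in prefrontal cortex, with 6 and 5 below 0. Tsfm, which recycles the elongation factor Tufm, was lower with groups apart in irradiated hippocampus (−0.17 ± 0.06, limma adjusted p 0.475) and at 0.13 ± 0.09 in prefrontal cortex. The 21 assembly and rRNA-modifying factors had medians of −0.08 and −0.01. Ngrn and Rpusd4, both needed for the large ribosomal RNA, were at −0.18 ± 0.05 and −0.24 ± 0.08 in hippocampus with groups apart (limma adjusted p 0.475 each). In prefrontal cortex Noa1 was at 0.15 ± 0.08 and Nsun4 at −0.14 ± 0.09, both with groups apart (limma adjusted p 0.761 and 0.803). Without overlap, 5 of the 21 were lower and 3 higher in hippocampus (8.16% and 7.41% of all genes). In prefrontal cortex 1 was lower and 2 were higher (7.44% and 6.25%). For the 20 aminoacyl-tRNA synthetases, which charge the mitochondrial tRNAs, the medians were −0.07 and 0.05. Cars2 and Fars2 were at −0.21 ± 0.08 and −0.27 ± 0.11 in hippocampus with groups apart (limma adjusted p 0.475 each). Tars2 was at 0.19 ± 0.10 in prefrontal cortex with overlap (limma adjusted p 0.747). No gene of these lists passed the adjusted threshold in either region.

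Slirp, which with Lrpprc binds and stabilises mitochondrial mRNAs, had 71.04, 59.8 and 79.1 FPKM in irradiated and 94.6, 89.1 and 99.2 FPKM in control prefrontal cortex. The groups were apart, with a log2 difference of −0.43 ± 0.10 (limma adjusted p 0.394). Its partner Lrpprc was higher there with groups apart, at 0.17 ± 0.07 (limma adjusted p 0.638). In hippocampus Slirp was at −0.27 ± 0.11 with overlap and Ptcd1 at 0.15 ± 0.06 with groups apart (limma adjusted p 0.475 each). Their list, of mitochondrial transcription and mRNA maintenance, holds 11 tested genes. Its medians were 0.0036 in hippocampus and −0.0088 in prefrontal cortex, with 5 and 6 below 0. Of the 5 ribosome-associated proteins whose names the rule does not take, 4 were below 0 in hippocampus and 5 in prefrontal cortex, with medians of −0.06 and −0.12. Gadd45gip1, a mitochondria-specific protein of the large subunit, was at −0.25 ± 0.08 in prefrontal cortex with groups apart (limma adjusted p 0.527), and Ict1, a peptidyl-tRNA hydrolase built into the large subunit, at −0.22 ± 0.11 and −0.18 ± 0.10. The 9 biogenesis regulators had medians of 0.05 and 0.04, with 6 and 7 above 0. Ppargc1b, a transcriptional coactivator of that group, was at 0.30 ± 0.10 in hippocampus with groups apart (limma adjusted p 0.475). Yy1 was at 0.17 ± 0.08 in prefrontal cortex with groups apart (limma adjusted p 0.692). General mitochondrial proteins outside translation had medians of −0.04 and −0.03 over 16 genes.

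Larger lists of abundant genes showed medians further from 0. The 82 cytosolic ribosomal protein genes tested had a median of −0.24 in hippocampus and −0.31 in prefrontal cortex, with 81 of 82 below 0 in each. The 82 nuclear respiratory chain genes tested had medians of −0.17 and −0.16, with 79 and 70 below 0. No gene of either list passed the adjusted threshold in limma. At an unadjusted p under 0.05, 32 and 48 cytosolic ribosomal genes and 17 and 20 respiratory chain genes were lower (5.81% and 4.79% of all genes). In hippocampus 8 cytosolic ribosomal and 6 respiratory chain genes were lower without overlap, near the 8.16% of all genes. In prefrontal cortex 56 and 28 were (7.44%). None was higher without overlap in either region (7.41% and 6.25% of all genes). The members' sum was 7.18% ± 0.572 of the cytosolic ribosomal sum in irradiated and 6.57% ± 0.353 in control hippocampus, and 7.76% ± 0.558 and 6.76% ± 0.113 in prefrontal cortex (SD, n = 3). In prefrontal cortex each irradiated share was above each control share, and in hippocampus the shares overlapped.

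Transcript length moved with these differences. The median longest annotated transcript of a member was 1806.5 bases, against 3465 for all genes at a mean of 1 FPKM or more. Among all genes with transcripts under 1000 bases, the median difference was −0.16 in hippocampus and −0.16 in prefrontal cortex, and over 4000 bases it was 0.04 in both. The 18 members under 1000 bases had medians of −0.21 (18 of 18 below 0) and −0.18 (17 of 18). From 1000 to 2000 bases, 24 members had medians of −0.09 and −0.06 beside −0.08 and −0.06 for all genes. From 2000 to 4000 bases, 25 members had −0.11 and −0.12 beside −0.02 and −0.01, and over 4000 bases 11 members had −0.04 and −0.04 beside 0.04 and 0.04. With the length trend of each library removed, 51 and 48 members were below 0, beside 49.7% and 47.6% of all genes. In hippocampus 5 members were then lower at an unadjusted p under 0.05 (4.23% of all genes) and 8 without overlap (6.98%), near the shares of all genes. In prefrontal cortex there were 12 (3.3%) and 11 (5.99%). The part of transcript length or RNA quality in the members' differences was not tested beyond this.

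The members moved together within libraries. In prefrontal cortex irradiated 2 the median member lay 0.18 (log2) below the mean of its region, with 70 of 78 members below it, and in hippocampus irradiated 2 the median deviation was −0.11, also with 70 of 78. In hippocampus control 1 it was 0.13, with 8 of 78 below the mean. Irradiated 3 was near the mean in both regions (0.01 and 0.03). The median deviation of other genes with transcripts under 1000 bases was −0.23, −0.20 and 0.17 in the first 3 of these libraries.

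**Figure D5:**
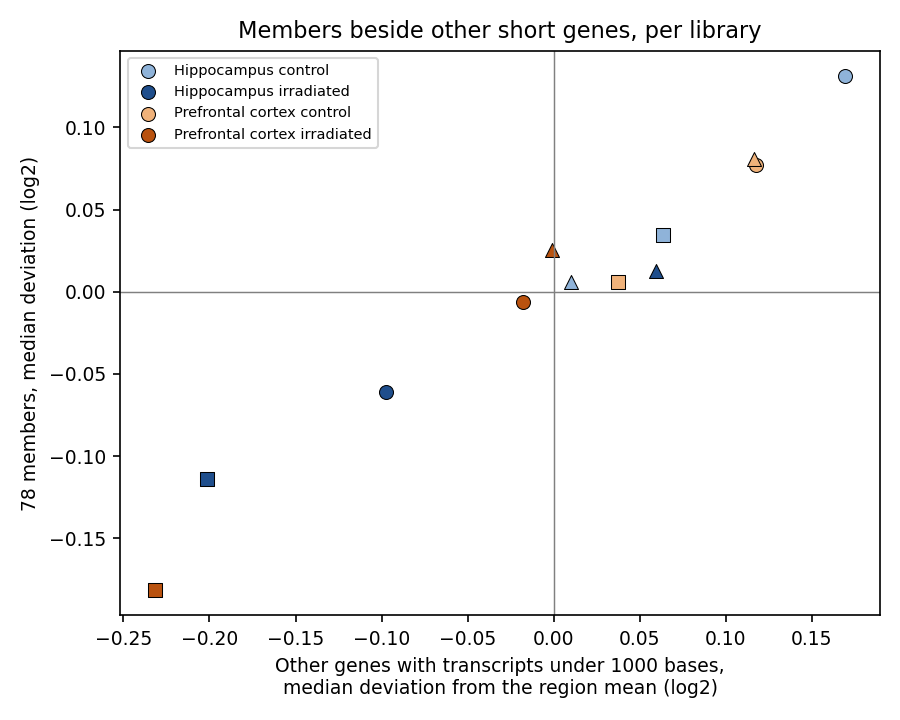
Median deviation from the region mean (log2) per library, of other genes with transcripts under 1000 bases (horizontal) and of the 78 members (vertical). Colours are the 4 groups, and circles, squares and triangles are mice 1, 2 and 3. Libraries with low short genes also have low members, from −0.18 for members in prefrontal cortex irradiated 2 to 0.13 in hippocampus control 1.

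Cell type markers also moved with the groups. Summed endothelial markers ran from 79.3 to 92.9 FPKM in irradiated and from 38.05 to 54.3 FPKM in control hippocampus, with 10 of 10 above 0, and from 91.9 to 106 and from 73.4 to 81.2 FPKM in prefrontal cortex, with 9 of 10 above 0. Myelin markers ran from 2205 to 2322 and from 2376 to 2895 FPKM in hippocampus, with 9 of 10 below 0, and from 1533 to 1684 and from 1771 to 1945 FPKM in prefrontal cortex, with 8 of 10 below 0. Microglial markers ran from 245 to 275 and from 278 to 292 FPKM in hippocampus, with 9 of 10 below 0, and overlapped in prefrontal cortex. Choroid plexus markers stood at 66.3 FPKM in hippocampus irradiated 2 and at 3155 to 5895 FPKM in the other hippocampal libraries, and at 66.9 FPKM in prefrontal cortex control 3 beside 4.35 to 6.49 FPKM in the other libraries of that region. Neuronal and astrocyte marker sums overlapped between irradiated and control libraries in both regions. The sums of striatal and of hippocampal markers overlapped as well. Cortical markers ran from 75.7 to 88.5 FPKM in irradiated and from 67.7 to 74.7 FPKM in control hippocampus, with 6 of 7 above 0. In prefrontal cortex their sums overlapped. Of the marker genes only Otx2, a choroid plexus marker, was listed at 0, in 1 library. The part of cell composition in the members' differences was not tested.

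Hippocampus and prefrontal cortex of control mice differed more clearly. Of the 78 members, 6 were higher in hippocampus at a limma adjusted p under 0.05 (15.7% of 12923 genes were) and 0 were lower (14.6% of genes). At an unadjusted p under 0.05 there were 8 higher and 3 lower, against 20.9% and 19.6% of genes. The difference was above 0 for 47 and below 0 for 31 (49.1% of genes). The members' count was thus below the share of all genes in both directions. Cell type markers differed as well. All 8 striatal markers were called lower in hippocampus, with sums of 93.7 to 115 FPKM there and 750 to 969 FPKM in prefrontal cortex, and all 10 choroid plexus markers were called higher. Of 10 markers each, 9 of myelin and 6 of astrocytes were called higher, 8 of endothelium lower, and 6 of neurons lower and 1 higher, while no microglial marker was called. The part of tissue composition in the members' differences between regions was not tested.

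Mrps6, a bacterial-type protein of the small subunit, differed most. It stood at 39.8, 39.02 and 45.2 FPKM in control hippocampus and at 28.4, 28.1 and 31.3 FPKM in control prefrontal cortex. The groups were far apart, with a log2 difference of 0.48 ± 0.08 and a limma adjusted p of 0.00124. In irradiated mice it had 34.7, 28.9 and 43.4 FPKM in hippocampus and 29.2, 23.3 and 29.98 FPKM in prefrontal cortex, which overlap, and the difference was 0.36 ± 0.15 (limma adjusted p 0.117).

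Mrpl50 (0.33 ± 0.10), Mrpl57 (0.26 ± 0.08), Mrpl39 (0.23 ± 0.07), Mrps9 (0.23 ± 0.07) and Mrpl9 (0.21 ± 0.07) also passed, with limma adjusted p between 0.031 and 0.0467. Mrpl50 stood at 19.8, 19.2 and 18.9 FPKM in hippocampus and at 12.8, 16.4 and 16.6 FPKM in prefrontal cortex, where control 1 was lowest. With the mouse as a block, Mrpl57 no longer passed (adjusted p 0.052), and without hippocampus control 1 only Mrps6 of the 6 kept its call. Of all genes, 3922 were called in either direction with every control library, and 2953 without hippocampus control 1. Leaving out hippocampus control 2, hippocampus control 3 or prefrontal cortex control 2 left 2 members called higher. All-gene calls were then 2920, 3336 and 3208 in that order. After rescaling to equal totals Mrps6 and Mrpl50 kept their call, while Mrpl57, Mrpl39, Mrps9 and Mrpl9 did not pass. Without the filter on low values Mrpl50 and Mrpl57 did not pass. Towards prefrontal cortex the members with the smallest p were Mrpl16 (−0.25 ± 0.09), Mrpl40 (−0.23 ± 0.09), Mrpl46 (−0.19 ± 0.08), Mrpl34 (−0.15 ± 0.07) and Mrps30 (−0.12 ± 0.06). None of these 5 passed (limma adjusted p from 0.0684 to 0.2). Mrpl16 and Mrpl40 passed after rescaling to equal totals, and all of them but Mrps30 after removal of the length trend.

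In irradiated mice the same comparison called 5 members higher (13.9% of genes) and 2 lower in hippocampus (15.3%). At an unadjusted p under 0.05 there were 7 higher (19.3% of genes) and 4 lower (20.3%). Mrpl39 (0.29 ± 0.07), Mrpl42, Mrpl50, Mrpl32 and Mrps5 were higher, and Mrpl3 (−0.25 ± 0.06) and Mrps18b (−0.27 ± 0.08) lower. Mrps18b was at 0.10 ± 0.06 in control mice with a limma adjusted p of 0.253. With the mouse as a block, 9 members were called higher and 3 lower in irradiated mice. Calls of all genes then went from 3758 to 4629 of 12878.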

How the data were processed

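Each of the 12 libraries came as a table of gene symbols with 1 value per gene, deposited by the authors. Extraction used Trizol and library construction a directional NEBNext Ultra II kit, per the labels' protocols. TopHat and mm10 are named in the submitters' processing notes. The sources used here do not give which tool counted reads, on which annotation, or whether it used the strand. The deposited values name no unit and were taken as FPKM: they are not whole numbers, sums run from 381417 to 435534, and values times transcript length in kilobases sum to 1.196 to 1.243 M (mega) per library. FPKM are relative to the library total, so abundant genes move all others. GENCODE M21 matched 22110 of 23183 symbols (95.37%) and all 78 members. Promoter windows are RefSeq's on GRCm38.p6, with the first listed window used for 3 members that have several.

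Differences were tested with limma-trend (limma 3.58.1, R 4.3.3) applied to log2(FPKM + 1). A gene entered where its mean over the libraries compared was 1 FPKM or more. P-values had Benjamini-Hochberg adjustment over all genes and a threshold of 0.05, and the code was tested on simulated data. Tests are two-sided. The libraries of a group are numbered as separate mice in the titles, and all libraries carry 1 batch label. A log2(FPKM + 1) difference understates changes of low genes. Groups called apart are those where every library of one group is below every library of the other. Sums and motif shares have no test. Alternatives were the pseudocount, the filter, the scaling, robust moderation, removal of the length trend by loess (span 0.5), the replicate number as a block, 1 fit over all libraries, and leaving out each library.

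The named members were, per irradiation comparison and subunit, the 5 of smallest p, then 5 for the difference between regions and 5 per direction between regions. Added to these were the 3 highest and 3 lowest members and 9 fixed genes (Chchd1, Mrpl12, Mrps12, Mrpl34, Mrpl44, Mrps34, Mrps18a, Mrps30 and Mrps36). Of each other list, at most 2 genes of smallest p per irradiation comparison are named. Other names complete a count. Members and lists were chosen with earlier results of these data known.

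Same-numbered libraries of both regions come from the same mouse, per the titles, and their deviations from the group means correlated with r from −0.006 to 0.30. Between irradiated and control mice of the same number r was 0.117, 0.120 and 0.141 in prefrontal cortex, and 0.103, −0.017 and −0.160 in hippocampus.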

Additional observations from a re-analysis of the deposited data

Results flagged for a closer look

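Mrps18b was flagged by a rule on these same values: groups apart in both regions, in opposite directions. Every irradiated hippocampal library lay below every control library, and every irradiated library of prefrontal cortex above every control library there. The share of all genes that meet this joint rule was not computed. For 1 region alone it was 8.16% (lower, hippocampus) and 6.25% (higher, prefrontal cortex). The p given next rests on the values that the rule used and adds no separate support. The difference between the irradiation effects in hippocampus and prefrontal cortex was −0.37 ± 0.10 (SE, log2 scale) with an unadjusted p of 0.00317 and an adjusted p of 0.9998 in limma. Over all alternatives the difference stayed between −0.45 and −0.32, and its adjusted p between 0.608 and 1.0. The lowest, 0.608, came from the fit with the mouse as a block.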

How the results depend on the processing

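No member was called between irradiated and control mice in either region, or for the difference between regions, under any alternative run. In hippocampus, rescaling to equal totals left 4 members lower at an unadjusted p under 0.05 and 8 without overlap, with medians of −0.0333 (large subunit) and −0.0519 (small subunit). Removing the length trend left 5 and 8, with a small-subunit median of −0.0518. The leave-one-out ranges were 7 to 27 lower by p (2.4% to 9.98% of all genes) and 22 to 40 without overlap (10.9% to 19.9%). In prefrontal cortex, equal totals left 8 by p and 11 without overlap, and removal of the length trend 11 without overlap. Without 1 library at a time there were 9 to 20 by p (3.56% to 5.27% of all genes) and 18 to 29 without overlap (11% to 14.6%). Between the regions of control mice, equal totals called 2 members higher and 2 lower in hippocampus, and removal of the length trend called 7 lower. Calls of all genes in either direction were 3890 and 3999 in these settings, beside 3922 in the main fit. Each library left out in turn, the test called 1 to 5 members higher and 0 to 2 lower, beside 2920 to 3843 of all genes. The causes of these shifts were not tested, except that fewer samples enter when a library is left out.

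Among the named genes, the sign turned only in values near 0 that passed no test. In hippocampus these were, with equal totals, Mrpl44 0.0575, Mrps12 0.0471, Mrps30 0.046 and Mrps34 0.0698, and with the length trend removed Mrpl44 0.0627, Mrps12 0.0957 and Mrps34 0.0433. Leave-one-out ranges were −0.0904 to 0.0368 for Mrpl44, −0.0943 to 0.0154 for Mrps12, −0.0866 to 0.0248 for Mrps30 and −0.121 to 0.0727 for Mrps34. In prefrontal cortex they were, with equal totals, Mrpl44 0.0158 and Mrps36 0.0327, and with the length trend removed Hspe1 0.00996, Mrpl44 0.021 and Mrps36 0.13. The leave-one-out ranges there were −0.0358 to 0.131 for Mrps34, −0.122 to 0.041 for Mrps36 and −0.192 to 0.0299 for Hspe1.

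With the replicate number as a block, 15 members in hippocampus (4.42% of all genes) and 20 in prefrontal cortex (6.04%) were lower at an unadjusted p under 0.05. They stood in place of 16 (5.81%) and 17 (4.79%), and none was called. In control mice the block called 5 members higher in hippocampus in place of 6, while calls of all genes went from 3922 to 4326. It changed no other call named except in irradiated mice, where it called 9 and 3 in place of 5 and 2. Calls of all genes went there from 3758 to 4629. Other pseudocounts, filters, robust moderation and median-of-ratios scaling kept the counts of lower members between irradiated and control mice within 1.5 times. Without the filter, 2 members (2.42% of all genes) in place of 1 (2.44%) were higher by p in prefrontal cortex. The unnamed unit, the approximate depth and 3 mice per group limit every value here.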

Other observations

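Lars2, the mitochondrial leucyl-tRNA synthetase, was listed between 1537 and 2934 FPKM in the 12 libraries, above every member of the mitochondrial ribosome. It was chosen after its values were seen. Its groups overlapped in both regions. The sum of all 20 synthetases, Lars2 among them, was 1663 to 3061 FPKM. Whether all reads counted for Lars2 come from its own mRNA was not tested, so the values are not read as its mRNA level.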
